A study of Bos taurus with 2 samples.

Results

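The genes described here carry the hormonal control of the testis by gonadotropins, prolactin, growth hormone and the relaxin-like peptide of the Leydig cell. Their 8 members were the luteinizing hormone/choriogonadotropin receptor (LHCGR), the follicle stimulating hormone receptor (FSHR), insulin like 3 (INSL3), relaxin family peptide receptor 2 (RXFP2), prolactin (PRL), the prolactin receptor (PRLR), the growth hormone receptor (GHR) and the gonadotropin releasing hormone receptor (GNRHR). Members were found by the gene name that the array gives to each probe, without use of the signals. RXFP2 had no probe of its name, and the remaining 7 genes had 21 probes, out of 51282 probes and 32429 gene names on the array. These 21 probes lay on 22 spots.

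Testis RNA of crossbred bulls (Bos taurus x Bos indicus) with Holstein Friesian inheritance was compared with that of Zebu bulls (Bos indicus) of the Tharparkar breed. All bulls were 24 months old, and none had a treatment named in the sources. RNA of 3 bulls was pooled within each group and measured on 1 bovine array of 60-base probes, with both arrays on the same slide. The array is a Bos taurus design. How well its probes match each group was not tested, and cannot be told apart from a difference in RNA. A pool gives 1 value per gene, so the spread between bulls is not in these data, no test between the groups could be made and no p-value is given. Values are given as the processed signal of the scanner software, or as its log2 minus the 75th percentile of the array (the level), and differences are on the log2 scale, with the Zebu value subtracted from the crossbred value.

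Luteinizing hormone acts through LHCGR on Leydig cells, where it drives androgen synthesis, and follicle stimulating hormone acts through FSHR on Sertoli cells, which nurse the germ cells. Both receptors couple to the stimulatory G protein and cyclic AMP. Gonadotropin releasing hormone of the hypothalamus acts through GNRHR, best known from the pituitary, to release both gonadotropins. INSL3 is a major secreted product of mature Leydig cells that guides the descent of the fetal testis through RXFP2. Prolactin and growth hormone are pituitary hormones whose receptors, PRLR and GHR, belong to the cytokine receptor class and signal through the kinase JAK2 and the STAT5 factors.

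The sequences below are 30-base stretches of the probes on which the values of the detected members rest, 5′ to 3′ as the scanner files give them. Positions on the genome are those of the array's own annotation on the bovine build HGSC Btau_3.1, and whether they fall in an exon or a UTR was not analysed here. The first 4 belong to the probes from which LHCGR, FSHR, INSL3 and GHR were read, at chr11:32194757-32194816 (minus strand), chr11:32492926-32492985 (minus), chr7:5259490-5259549 (plus) and chr20:33896819-33896878 (minus).
LHCGR, base 2059 of the transcript: cattacaatgtcaatattcagctgtcctgg
FSHR, base 2236: acttccacttacttcatctaatttaatctc
INSL3, base 654: agagatgccagacactcttctcaaatgttc
GHR, base 1892: catcatgtggctatgtgagcacagaccaac

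The next set belongs to the 6 detected PRL probes, those well above background on an array, all on the minus strand of chromosome 23, and they are shown because the PRL result rests on how many of them are separate measurements. Capitals mark the 28-base run that the probes at bases 736 and 751 share, and, in the probe at base 841, the hexamer AATAAA.
PRL, base 360 (chr23:35573864-35575951): taaagaacaagcccaacagacccaccatga
PRL, base 523 (chr23:35573073-35573760): aacaaacgacttctggaaggcatggagatg
PRL, base 626 (chr23:35572970-35573029): aaactaaggatgaagatgcacgttattccg
PRL, base 736 (chr23:35572750-35572777): cgTCCTATCCATTTCTGAGATGGTTCTTAA
PRL, base 751 (chr23:35572846-35572904): aTCCTATCCATTTCTGAGATGGTTCTTAAt
PRL, base 841 (chr23:35572756-35572815): ggtttcatcttaAATAAAaacagactctgt

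The probes at bases 360 and 523 were placed by the array's annotation over 2088 and 688 bases of genome, more than their 60 bases. Only 28 bases of the probe at base 736 were placed. Their place overlaps that of the probe at base 841, which conflicts with a start at base 736 of the transcript. None of the other PRL probe pairs shared a run of even 20 bases, so the 6 detected PRL probes read 5 separate stretches of the transcript. No probe of another gene name shared 20 bases with any member probe, in a search of 51261 probes. AATAAA, the core signal that precedes the poly(A) tail, was found in 1 of the 21 member probes, the PRL probe at base 841, and in 8.35% of all probes of the array (3.30% on the opposite strand).

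Among the 7 genes with a probe, both arrays gave LHCGR, FSHR, INSL3 and PRL a signal that the scanner software called well above background. GHR had such a signal on the Zebu array only, and PRLR and GNRHR on neither. A gene passed the threshold with a log2 difference of at least 1.5 in size, a 2.83-fold change, if its brighter signal was well above background. PRL was higher in crossbred testis and GHR was lower, and LHCGR, FSHR and INSL3 did not pass the threshold. Of the 24751 gene names detected on either array, 1762 (7.12%) were called higher and 722 (2.92%) lower, and 1 called gene in each direction out of 5 detected members is too few to read against these shares.

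**Figure D1:**
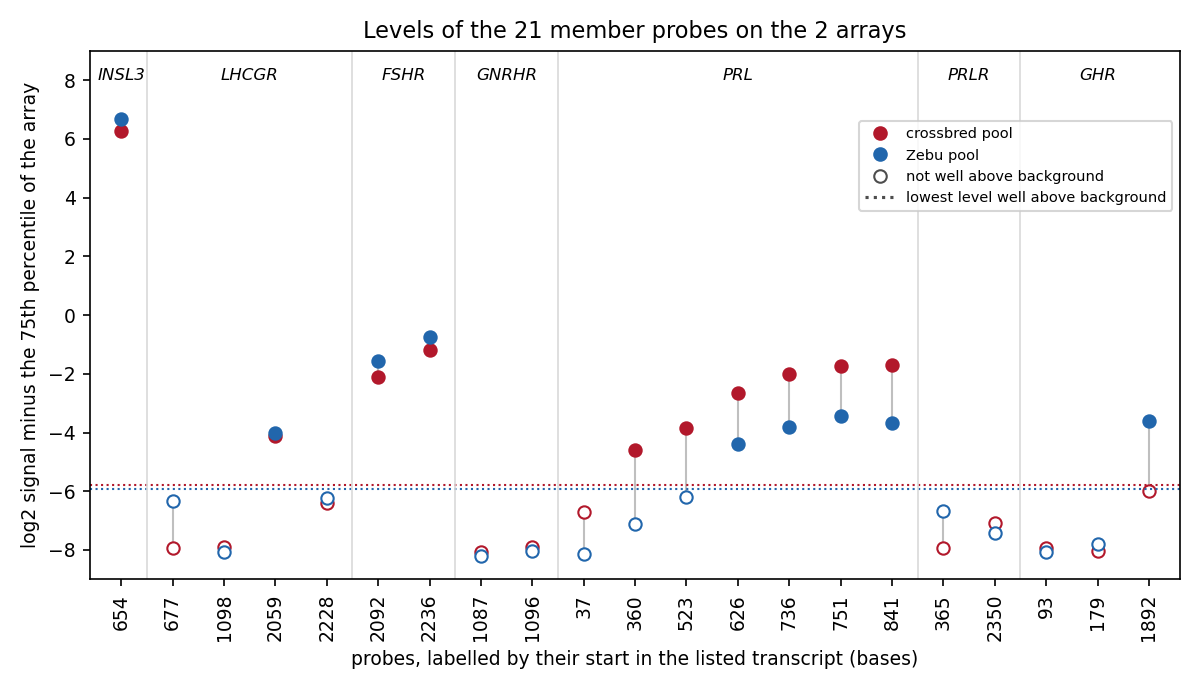
The level of each of the 21 member probes (log2 processed signal minus the 75th percentile of its array, vertical axis) on the crossbred array (red) and the Zebu array (blue). Hollow points were not well above background, dotted lines mark the lowest level that was, and levels compare only within a probe. Red lies above blue in every filled PRL pair, while the INSL3, LHCGR and FSHR pairs lie close together.

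The plot of levels shows where a difference could be read at all. Of the 21 probes, 8 stood well above background in both pools, 3 in a single pool and 10 in neither. For a single pool a bound is given, set against the lowest level well above background on the dim array. Some probes above that level were not called well above background, such as FSHB at -5.60 against -5.78 in the crossbred pool. The bounds are therefore nominal, and they leave out the signal error. The error of a difference can be taken only from probes printed on several spots. Over 5960 such probes the SD between spots was 0.29 within the crossbred array and 0.18 within the Zebu array. Combined, these gave an SD of 0.34 for a difference, and the SD of the spot-by-spot differences was 0.33. Such an SD covers spotting and scanning, and neither the labelling nor the bulls.

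**Figure D2:**
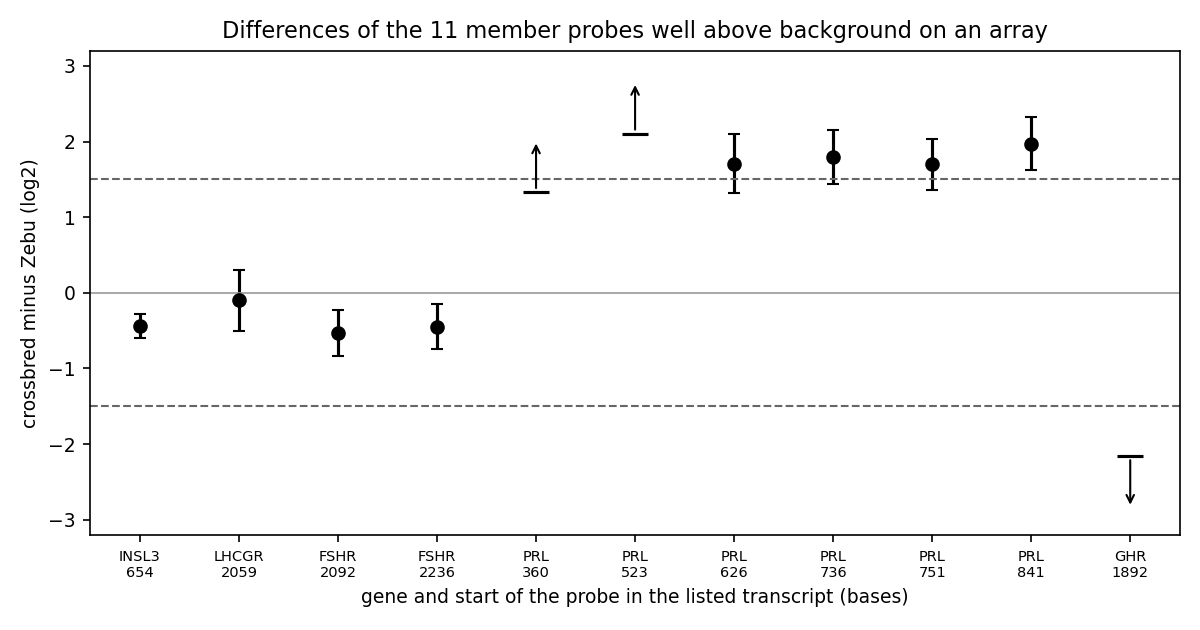
Log2 difference crossbred minus Zebu of the 11 detected member probes, labelled by gene and start in the transcript. Error bars are the SD between spots of probes of similar level, bars with arrows are bounds, and dashed lines mark the threshold of 1.5. The PRL probes lie on the upper side, the GHR probe on the lower side, and the INSL3, LHCGR and FSHR probes between -0.54 and -0.10.

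INSL3, the peptide hormone of the Leydig cell, had 1 probe and was bright on both arrays. Its signal was 89712 in the crossbred pool and 127390 in the Zebu pool, levels of 6.25 and 6.69. The difference was -0.44, against an SD between spots of 0.16 at this brightness (44 probes), and below the threshold. Among the 118 transcripts of similar level the median difference was 0.08, and 11.9% of them lay at or below that of INSL3. Of the 18 spots nearest to the INSL3 spot 17 had a usable value, with a median difference of -0.48. Minus this median the INSL3 difference was 0.038. The nearest spots read other probes, and whether the place on the array lowered the crossbred INSL3 value was not tested. Such a subtraction can itself add scatter. At the FSHR probe at base 2236, spot differences of -0.51 and -0.39 became -1.11 and -0.046 after the same subtraction.

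RXFP2, the receptor of INSL3, could not be read by name. One probe outside the members, chosen after its values were seen, was described on the array only as similar to the dog relaxin receptor 2. Its signal was 42.5 in the crossbred pool and 47.6 in the Zebu pool, a difference of -0.10, and that it measures bovine RXFP2 was not tested.

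LHCGR, the receptor of luteinizing hormone, had 4 probes, of which only the probe at base 2059 was detected. This probe gave a signal of 67.9 in the crossbred pool and 76.4 in the Zebu pool, levels of -4.11 and -4.01. The difference of -0.10 was smaller than the SD between spots at this level, 0.40. The probes at bases 677, 1098 and 2228 were not well above background on either array, with signals from 4.55 to 16.5, and give no difference. Whether forms of the LHCGR transcript differ between the pools could therefore not be seen.

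FSHR, the receptor of follicle stimulating hormone, had 2 probes, both detected on both arrays. The probe at base 2236 was printed on 2 spots, which read 519.7 and 518.2 in the crossbred pool and 776.7 and 710.3 in the Zebu pool. Every Zebu spot was thus above every crossbred spot, and the difference was -0.45, with an SD between spots of 0.30 at this level. The spots around these 2 places had median differences of 0.60 and -0.34, so that against its surroundings FSHR differed by -1.11 at the first and by -0.046 at the second. At base 2092 the signal was 274 in the crossbred pool and 417 in the Zebu pool, a difference of -0.54. Both probes were lower in crossbred testis by more than 1 SD between spots and by less than the threshold. Of 2568 transcripts of similar level, 34.0% had a difference at or below that of FSHR.

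GNRHR had 2 probes that shared a 28-base run, and neither was well above background on either array. Their signals were 4.41 and 4.87 in the crossbred pool and 4.18 and 4.65 in the Zebu pool. No difference can be given for the receptor of gonadotropin releasing hormone, and its transcript was not detectable in either testis pool at this sensitivity.

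PRL, the gene of the hormone prolactin, was higher in crossbred testis at each of its 6 detected probes. At base 751, the probe from which the gene was read, the signal was 354 in the crossbred pool and 114 in the Zebu pool, levels of -1.73 and -3.43 and a difference of 1.70 (SD between spots 0.33). The probe at base 841 read 362 and 96.6, a difference of 1.97. The probe at base 736, which shares bases with that at 751, read 293 and 88.6, a difference of 1.79.

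Further towards the 5′ end the direction was the same. The probe at base 626 read 184.6 in the crossbred pool and 59.2 in the Zebu pool, a difference of 1.71. The probes at bases 523 and 360 were well above background in the crossbred pool only, where they read 82.3 and 48.2, against 16.7 and 8.96 in the Zebu pool. These gave PRL at least 4.30-fold and at least 2.51-fold higher in crossbred testis, and the bound at base 360 lies below the threshold although its measured difference of 2.50 lies above it.

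The probe at base 37 was not well above background on either array, with signals of 11.3 and 4.34. For PRL, all 6 detected probes passed the threshold upward, where 6.14% of all 39804 detected probes did (2.99% downward). Of the 182 gene names with at least 6 detected probes, PRL was the only 1 with every detected probe called higher, 0.549% of them. None had every detected probe called lower. The cutoff of 6 is PRL's own number of detected probes. Those at bases 360 and 523 entered through the crossbred pool alone, where PRL was higher, and the dim probe at base 37 did not enter. The place of PRL among these genes is thus partly set by the cutoff and by the detection rule. Probes of 1 gene read the same RNA pool and are not replicates of the bulls.

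**Figure D3:**
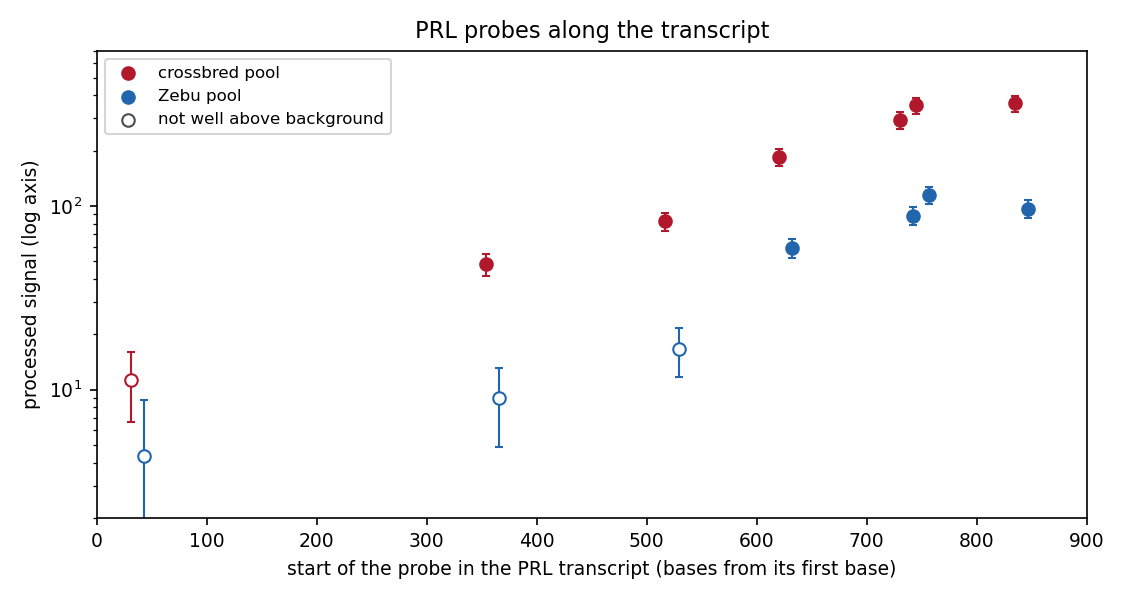
Processed signal (log axis) of the 7 PRL probes against their start in the transcript, in the crossbred pool (red) and the Zebu pool (blue, drawn slightly to the right). Error bars are the scanner software's signal error, a lower bar that leaves the axis is cut, hollow points were not well above background, and signals compare only within a probe. The crossbred signal is above the Zebu signal at every probe, with 354 against 114 at base 751.

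How far PRL passed the threshold was modest. The differences of the probes at bases 626, 736 and 751 exceeded 1.5 by less than their SD between spots. Among the 2410 transcripts of similar level, 6.60% had a difference at or above 1.70, so the size of the PRL difference was not rare on these arrays. After normexp background correction, which adds a constant of 50 to every signal and so draws dim probes together, the same 6 probes gave differences from 0.57 to 1.36. None of the 6 passed the threshold, while 3.37% of detected probes and 4.16% of detected transcripts passed it upward. With quantile normalization, with a shift by the median and in the authors' log2 values all 6 probes passed.

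PRLR, the prolactin receptor, had 2 probes, at bases 365 and 2350 of 2 listed transcripts, and neither was well above background on either array. The signals were 4.83 and 8.58 in the crossbred pool and 12.1 and 7.12 in the Zebu pool. The ligand was thus detected in both testis pools and its receptor in neither, which at this sensitivity is no statement that the receptor is absent.

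GHR, the growth hormone receptor, was lower in crossbred testis at its 1 detected probe. At base 1892 the signal was 18.5 in the crossbred pool, with a signal error of 4.95 from the scanner software, and 100.1 in the Zebu pool, with an error of 10.9. The crossbred spot was not well above background, so the difference is a nominal bound of 4.46-fold lower in the crossbred pool. That bound does not take in the signal errors. The measured levels were -5.99 and -3.62, a difference of -2.37. Of the 18 nearest spots 16 had a usable value, with a median difference of -0.11, and none of the 6 adjacent spots was called lower.

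The other GHR probes, at bases 93 and 179, belong to mRNAs listed with alternative first exons and share a 20-base run. Neither was well above background on either array, with signals from 4.53 to 5.52. After normexp background correction the GHR difference was -0.93 and no longer passed the threshold, and without genes that were dim on 1 array no member was called lower. The GHR call thus rests on 1 spot per array.

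**Figure D4:**
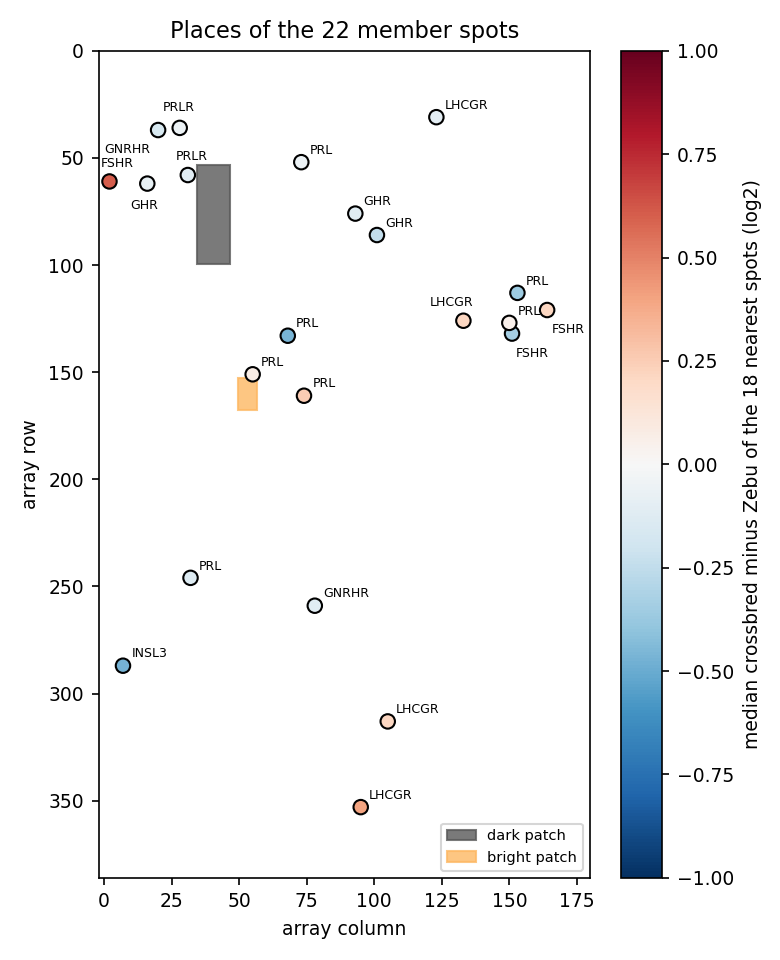
Places of the 22 member spots on the array (row against column), coloured by the median log2 difference of the usable spots among the 18 nearest. Grey and orange rectangles are the dark and the bright patch of the crossbred array. No member spot lies in either patch, and the colours run from -0.48 to 0.60.

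A place on the array can move a spot. A dark patch (rows 54 to 99, columns 35 to 46) and a bright patch (rows 153 to 167, columns 50 to 56) of the crossbred array held none of the 22 member spots. The PRL spot of the probe at base 360 lay at row 151 and column 55, just outside the bright patch, 2 rows above its upper edge. Around all 22 spots the median difference ran from -0.48 to 0.60, and no member spot was marked as an outlier.

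The pathways around the members were described by gene lists, each by how many genes passed the threshold and by its median, beside a median of -0.05 over all 24751 detected transcripts with those dim on 1 array at their bound. Of the 12 hormones and regulators of the hypothalamus and pituitary, 11 were on the array and 7 were detected. GNRH1, the gene of gonadotropin releasing hormone, was called higher by 4.01 in crossbred testis, with levels of -1.42 and -5.44, on 1 probe, and 2 of its 6 adjacent spots were also called higher. None was called lower and the median was -0.19. The pituitary hormone subunits LHB and TSHB differed by 0.28 and -0.28. The subunit CGA that they share was above background in the crossbred pool only, with a nominal bound of 1.65-fold higher there. The genes FSHB and GH1 were not detected on either array. POU1F1, the pituitary factor that drives PRL, was above background in the Zebu pool only, with a nominal bound of 1.29-fold higher there. These 6 genes were chosen after their values were seen.

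In the stimulatory G protein and cyclic AMP arm shared by LHCGR and FSHR, all 13 genes were detected. At the probe with the highest mean signal 3 were called higher and 1 lower, and the median was 0.06. GNAS, the gene of the stimulatory G protein, was chosen after its values were seen and differed by -0.52. Its 6 other probes ran from -1.91, beyond the threshold, to -0.68, with a median of -1.09. PRKAR2A, a regulatory subunit of protein kinase A, was higher by 2.56, and its other probe by 1.64. CREM, whose testis form activates genes of the spermatid, was higher by 1.54, with its other probes at 1.27 and 1.57. ADCY3, an adenylyl cyclase, was higher by 1.84 at 1 probe and differed by 0.13 at the other. ADCY9, also an adenylyl cyclase, was above background in the Zebu pool only, with a nominal bound of 2.26-fold lower in the crossbred pool. That bound lies below the threshold, and the other ADCY9 probe differed by -0.11.

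The targets of luteinizing hormone in steroid synthesis were all detected, 10 of 10. HSD3B1, which acts in the making of progesterone and androgens, had a difference of -1.77 and was called lower in crossbred testis. Its second probe stood at -1.79, and the third had a nominal bound of 2.06-fold lower. CYP17A1, the enzyme that turns pregnanes into androgens, was called lower too, at -1.68, with its other probe at -1.51. No gene was called higher, 8 of the 10 differences were below 0 and the median was -0.67. The receptor itself, LHCGR, differed by -0.10.

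Of the 10 targets of follicle stimulating hormone in Sertoli cells, 6 were detected and the median was -0.51. CYP19A1, the aromatase that makes estrogens, was above background in the crossbred pool only at the probe with the highest mean signal. The nominal bound there was 76.5-fold higher. The 1 other of the 5 CYP19A1 probes that was detected differed by 0.03, and the spots around the first had a median difference of 0.84. No gene was called lower at its probe with the highest mean signal. AMH and INHA, 2 Sertoli cell hormones chosen after their values were seen, differed by -1.39 and -1.08. The other probe of AMH stood at -0.82 and that of INHA at -1.58, beyond the threshold.

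In signalling downstream of PRLR and GHR, 16 of the 17 genes were on the array and detected. At the probe with the highest mean signal 1 was called higher and none lower, and the median was -0.27. IGFBP3, chosen after its values were seen, differed by 0.77 there. Its 4 other detected probes ran from -3.69 to 1.17, with a median of 0.46. IRS1, an adaptor better known from insulin signalling, was higher by 4.43 at 1 probe, while its other detected probe read 30.9 in the crossbred pool and 41.7 in the Zebu pool, and 3 of 6 adjacent spots were called higher too. JAK2 differed by -0.13, STAT5A by -0.77 and STAT5B by 0.63. SOCS2 and CISH, feedback inhibitors that both receptors induce, differed by -1.33 and -0.24, and IGF1, the growth factor that growth hormone induces, by -0.80. These 6 genes, chosen after their values were seen for their place next to the receptors, were all below the threshold.

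Of the 8 further relaxin-family genes, 6 were on the array and 3 were detected, with none called and a median of 0.36. The peptide gene INSL6, expressed in germ cells, differed by 0.45, and the receptors RXFP1 and RXFP4 by -0.36 and 0.36. All 8 genes of GnRH receptor signalling were detected, with a median of -0.34. PLCB1, a phospholipase C, was the only 1 called, higher by 2.20 on its single probe, and none of its 6 adjacent spots was called. PLCB3, chosen after its values were seen, differed by -0.44 on a spot in the dark patch, where the spots around it had a median of -1.31. Without spots in the patches the list median was -0.17. With the mean over all probes of a gene it was -0.07, and with the second brightest probe -0.02.

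**Figure D5:**
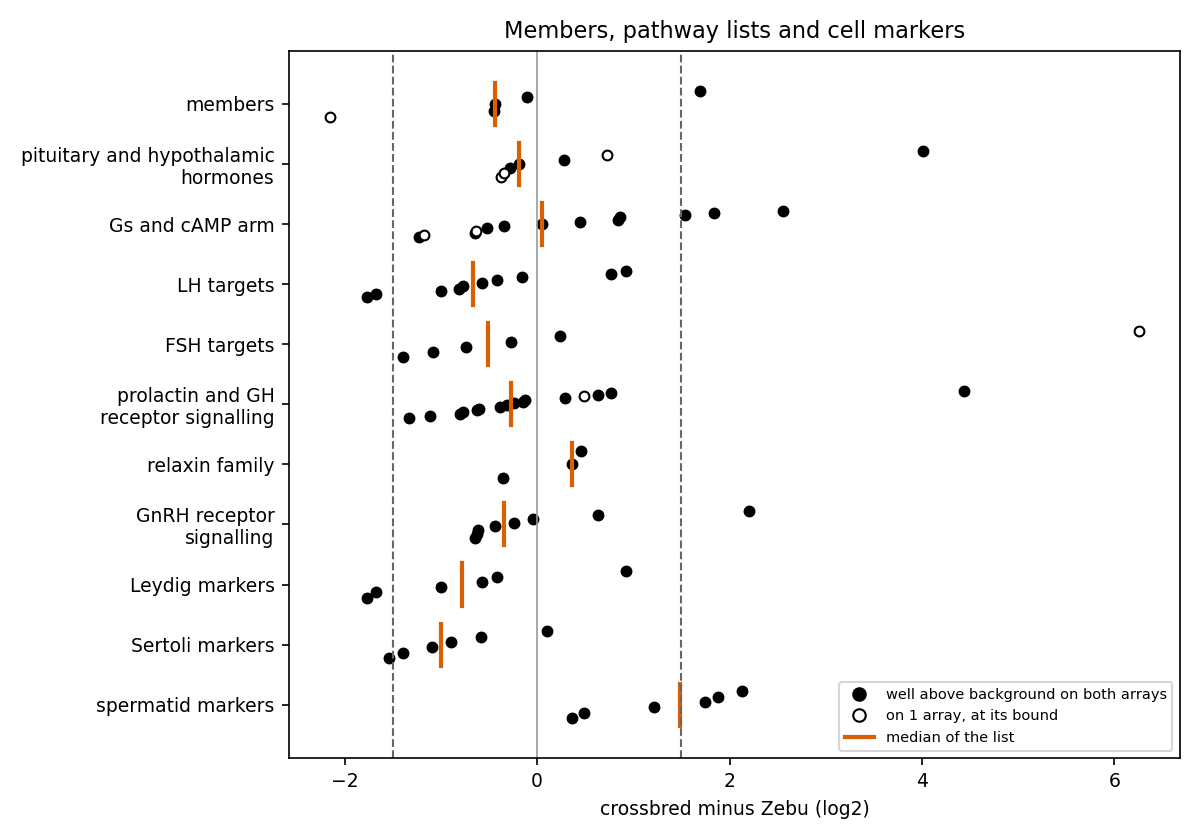
Log2 difference crossbred minus Zebu of the detected members, of the genes of 7 pathway lists and of 3 marker lists (all Leydig markers are also LH targets). Filled points had a signal well above background in both pools, hollow points stand at their bound, orange lines are list medians and dashed lines mark 1.5. The medians of the LH targets (-0.67), Leydig markers (-0.79) and Sertoli markers (-0.996) lie to the left, and that of the spermatid markers (1.48) to the right.

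Few markers of the cells that carry these receptors passed the threshold, while most lay below 0. In whole testis RNA, fewer cells of a type, less RNA per cell and more RNA from other cells cannot be told apart. All 6 Leydig cell markers are also in the list of LH targets, so their values repeat part of that list. All 6 were detected, 2 (HSD3B1 and CYP17A1) were called lower, 5 lay below 0 and HSD17B3 at 0.93, the median was -0.79 and the summed signal was 15621 in the crossbred pool and 37165 in the Zebu pool. Of 8 Sertoli cell markers 6 were detected, 1 (DHH, -1.53) was called lower, 5 lay below 0 and CTSL at 0.10, the median was -0.996 and the sums were 33187 and 58360. SOX9 had no probe of its name and KITLG was not detected. HSD17B3 and CTSL were chosen after their values were seen.

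Markers of germ cells lay on both sides of 0. All 6 spermatid markers were detected and 3 were called higher (PRM2 1.88, TNP2 1.74 and ODF1 2.13), with a median of 1.48 and sums of 809977 and 426981. The medians of the 3 detected spermatocyte and the 4 spermatogonial markers were 0.84 and -0.80. Beside these medians LHCGR differed by -0.10, INSL3 by -0.44 and FSHR by -0.45, and the part of cell composition in these values and in those of PRL and GHR was not tested.

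The 5 peritubular markers had a median of -0.77, with all 5 below 0 and none called, and their sums were 34441 and 63592. The 5 endothelial and 4 macrophage markers had medians of 0.08 and 0.10 with none called. Of the 3 red cell markers only HBA was detected, with a difference of -2.15.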

How the data were processed

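Each pool was labelled with Cy3 from oligo dT primed cDNA and hybridized to 1 array. The authors deposited scanner files of Agilent Feature Extraction 11.5.1.1, whose processed signal is an intensity, background-subtracted and then detrended by that software. Mean and local background intensities and flags were deposited too. The authors also deposited log2 values, shifted by the 75th percentile in GeneSpring.

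Of 62976 spots, 61657 were not controls, and 13 outlier spots were left out. No spot was saturated, and 72.0% of crossbred and 74.3% of Zebu spots were well above background. For each probe the mean log2 processed signal of its spots was taken, minus the array's 75th percentile over probes (1176 and 1233 as signal). The probe with the highest mean level stood for its gene. For a probe dim on 1 array, a bound was set against the lowest level well above background (-5.78 and -5.94). The dim probe's own level was used if higher. Some probes above the lowest level were not well above background, so the bounds are nominal. No fold was given where both arrays were dim. Calls used the measured difference. Transcripts of similar level lay within 0.5 in mean level.

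Groups came from the labels. The members and lists were chosen with earlier results of these data known. Named were every member with all its probes, each pathway gene past the threshold and, where none passed, the 3 brightest of the list, and further genes only where the text says that they were chosen after their values were seen. In lists, dim genes entered at their bound. IRS2, KISS1R, RLN1 and RLN2 were not matched by name, and RLN3 was matched by accession. The steps were tested on simulated data with the same spot noise at every level and with differences beyond the threshold. That test does not cover the larger noise of dim probes or differences close to the threshold. Python 3.11.15, numpy 2.4.6, pandas 2.3.3, R 4.3.3 and limma 3.58.1 (normexp, offset 50) were used. Real-time PCR of the study was not analysed here.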

Additional observations from a re-analysis of the deposited data

How the results depend on the processing

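Over 14 alternatives, 184 values were recomputed. Of these, 166 moved by less than the SD between spots, or by less than 1.5 times for a count, and 18 moved by more. Some of the 166 could not move or could hardly move. Leaving out saturated spots changed nothing, since no spot was saturated. A shift by the median and a 75th percentile from fewer probes moved every member difference by -0.004 and -0.026. LHCGR and INSL3 had 1 detected probe each, so the mean over all probes repeated their values. The 166 therefore overstate how stable the results are. Neither called member, PRL or GHR, changed sign. The sign turned for INSL3 against its 18 nearest spots (0.038), for the pituitary list median with the second brightest probe (0.28) and with probes well above background on both arrays only (0.048), and for the Gs and cAMP list median after quantile normalization (-0.06). After normexp background correction the GHR difference was -0.93, 0 members were called higher and 0 lower, and 1030 transcripts were called higher and 169 lower, so that 85.9% of calls were higher, against 70.9% in the values reported. Reading each gene from its second brightest probe left 0 members called lower and 468 transcripts called higher and 270 lower. With probes well above background on both arrays only, 0 members and 398 transcripts were called lower, and with the mean over all probes 450 transcripts were. A threshold of 1 called 3173 transcripts higher and 2196 lower, and a linear fold of 1.5 called 5290 and 5504. Some alternatives were chosen after seeing the data: the probe brightest on either array, every other PRL probe, and each spot against its 18 nearest, under which PRL differed by 2.06. The other detected PRL probes measured from 1.71 to 2.50. With each gene read from 1 value per alternative, PRL ranged from 1.36 (the probe at base 841, the brightest after normexp, where that at base 751 gave 1.20) to 2.06, GHR from -2.40 to -0.93, FSHR from -0.58 to -0.39, LHCGR from -0.31 to -0.07 and INSL3 from -0.51 to 0.038. No paired analysis was possible because each group had 1 array, and no array could be left out. Signal over background is the limit for LHCGR, GHR, PRLR and GNRHR.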
